A study of Homo sapiens with 6 samples.

Results

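A set of 10 negative-feedback and immediate early genes of the ERK pathway was followed in MDA-MB-453 cells: the dual-specificity phosphatase genes DUSP1, DUSP4, DUSP5 and DUSP6, the Sprouty genes SPRY1, SPRY2 and SPRY4, the SPRED genes SPRED1 and SPRED2, and IER3. They are 10 of 60569 gene names in the deposited table, found by exact match of the gene symbol. The list and the setting of DUSP5 against the other genes were selected on measured FPKM values of these same 6 libraries, so the changes of these genes are given as a description and support nothing. Of the 10 genes, 7 passed the filter for testing, an FPKM (fragment number scaled by transcript length and library size) of 1 or more in at least 3 libraries, among 13185 tested genes. DUSP6, SPRY4 and SPRED1 did not.

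MDA-MB-453 is an established human breast cancer line. In all, 3 libraries came from cells given a control vector and 3, called ZNF207 libraries here, from cells transfected with a construct that overexpresses ZNF207, a zinc finger protein of microtubules and kinetochores. The design text describes the replicates as independent and biological. The sources used here do not give the promoter of the construct, the time after transfection or the culture conditions. ZNF207 stood at 63.7 to 69.2 FPKM in the control libraries and at 750 to 885 FPKM in the ZNF207 libraries. Of 10 luminal and apocrine breast markers, 9 were present, among them KRT8 at 2808 to 3064 FPKM, while TFAP2B stayed at or below 0.254 FPKM. The 10 summed to 7204 to 7557 FPKM in controls and to 6920 to 6964 FPKM in ZNF207 libraries, without overlap, and the part of this in the results was not tested. Of 12 markers of basal, stromal, blood and endothelial cells, 11 stayed below 1 FPKM in every library, with a summed level of 0.419 to 1.08 FPKM in controls and 0.516 to 0.668 FPKM in ZNF207 libraries. The exception was COL1A1, at 7.98 to 11.3 FPKM. FPKM summed to between 589360 and 612711 per library, and read depth is unknown.

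ERK, the last kinase of the RAS, RAF and MEK cascade, carries signals from growth factor receptors to the nucleus, where it switches on immediate early genes. Some of the induced genes encode inhibitors that act back on the cascade. Dual-specificity phosphatases remove the activating phosphates of ERK and related kinases, Sprouty proteins act between receptor and RAF, and SPRED proteins bring the RAS inhibitor neurofibromin to the membrane. In breast epithelium the cascade lies downstream of the ERBB and FGF receptors.

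Promoter windows of 300 bases, from 250 before to 50 after an annotated start, were taken from a table of RefSeq promoters (GRCh38.p14), in which 7 of the 10 genes were matched. Windows of DUSP4, DUSP5 and IER3 were not analysed here. In all, 4 windows are shown, both starts of SPRY1 because its estimate was the lowest of the feedback genes, the outermost SPRY2 window as a relative from the same family, and DUSP1 as a gene of like level whose groups overlapped. Capitals mark matches on either strand to the ETS motif CCGGAA, the cAMP response element TGACGTCA and its 5-base part TGACG, the AP-1 motif TGANTCA, the core ACGTG and the CArG box. The motif TGACG lies within TGACGTCA, so every full element also holds the shorter motif. All windows read 5′ to 3′ along the gene.
SPRY1, upstream start, plus strand, chr4:123396545-123396844: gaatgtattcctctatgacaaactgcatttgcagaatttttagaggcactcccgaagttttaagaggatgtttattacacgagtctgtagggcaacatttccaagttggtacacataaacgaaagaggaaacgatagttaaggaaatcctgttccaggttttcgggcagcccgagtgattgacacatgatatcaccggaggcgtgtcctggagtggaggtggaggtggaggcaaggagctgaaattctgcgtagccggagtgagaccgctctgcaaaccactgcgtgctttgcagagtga
SPRY1, downstream start, plus strand, chr4:123398136-123398435: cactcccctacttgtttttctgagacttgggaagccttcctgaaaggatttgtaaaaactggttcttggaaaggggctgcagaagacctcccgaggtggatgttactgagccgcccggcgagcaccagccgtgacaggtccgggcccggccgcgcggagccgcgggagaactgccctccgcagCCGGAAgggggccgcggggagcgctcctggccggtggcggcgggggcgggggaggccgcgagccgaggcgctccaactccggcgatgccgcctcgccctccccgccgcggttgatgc
SPRY2, minus strand, chr13:80341077-80341376: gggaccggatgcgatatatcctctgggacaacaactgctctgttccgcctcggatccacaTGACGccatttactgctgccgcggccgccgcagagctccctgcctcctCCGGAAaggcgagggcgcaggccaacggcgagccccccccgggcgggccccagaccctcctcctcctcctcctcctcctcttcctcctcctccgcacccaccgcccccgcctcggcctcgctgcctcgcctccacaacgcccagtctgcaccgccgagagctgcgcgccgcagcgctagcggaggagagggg
DUSP1, minus strand, chr5:172771146-172771445: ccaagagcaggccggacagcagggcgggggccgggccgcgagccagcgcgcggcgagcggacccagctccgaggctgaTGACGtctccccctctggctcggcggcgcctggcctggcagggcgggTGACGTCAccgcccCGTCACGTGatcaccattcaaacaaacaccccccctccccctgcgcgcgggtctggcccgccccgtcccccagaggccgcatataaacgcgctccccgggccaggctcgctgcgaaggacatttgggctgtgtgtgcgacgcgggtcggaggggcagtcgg

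The upstream SPRY1 window held none of the 6 marked motifs and was 47.7% G or C. Its downstream window was 69.3% G or C and held CCGGAA at positions -67 to -62, counted from the start base as 0. SPRY2 carried the same 6 letters at -142 to -137, and TGACG at -190 to -186. In 35116 promoter windows of the same length, CCGGAA occurred in 17.2% and TGACG in 24.6%. The DUSP1 window held TGACGTCA at -125 to -118, a motif present in 1.85% of all windows, and 2 further matches to TGACG outside it. A palindromic CACGTG in the same window gave overlapping matches to ACGTG, which 21.4% of windows held. TGANTCA (7.71% of windows) and the CArG box (1.29%) were in none of the 4 windows. A match describes letters only, and none of these data measured binding.

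In control cells the 10 transcripts spanned from 79.4 FPKM for IER3 to 0.192 FPKM for SPRY4. IER3 was 3.38-fold above the next gene, SPRED2 (23.5 FPKM), and higher than 90.2% of tested genes. SPRED2, SPRY1 (21.3 FPKM) and DUSP1 (20.6 FPKM) followed with overlapping ranges, so each of these neighbours did not differ from the next beyond the spread of the libraries. DUSP5 (11.2 FPKM), DUSP4 (5.24 FPKM) and SPRY2 (2.23 FPKM) came next, each with a range apart from that of the gene before it. SPRED1 (0.817 FPKM) and DUSP6 (0.524 FPKM) overlapped, and SPRY4 lay below both. FPKM is scaled by transcript length, so these levels can be set side by side. Each of the 3 protein families with several listed genes thus had a member among the 5 most abundant and another below 1 FPKM. In the ZNF207 libraries DUSP5 stood at 14.9 FPKM, next to SPRY1 at 15.1 FPKM.

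**Figure D1:**
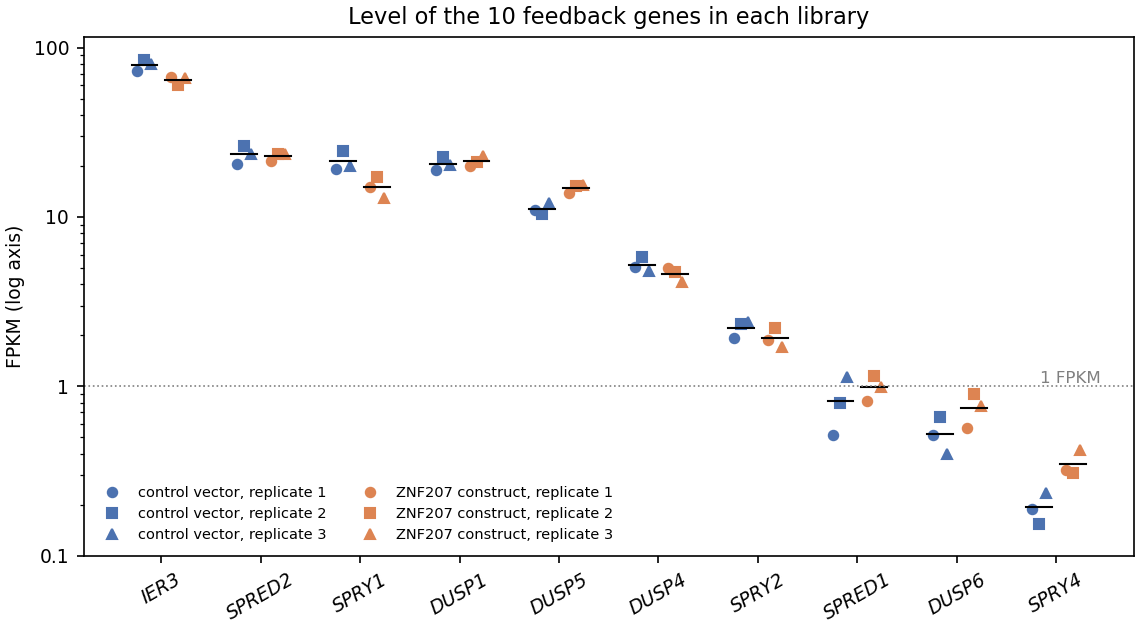
FPKM of the 10 feedback genes in each library on a log axis, ordered by the control mean; blue is control vector, orange the ZNF207 construct, the symbol gives the replicate number, and bars are means of 3 libraries. DUSP5 and SPRY4 are higher in all 3 orange points, SPRY1 and IER3 are lower in all 3, and SPRED1, DUSP6 and SPRY4 have means below 1 FPKM.

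None of the 7 tested feedback genes passed the threshold for a changed level (limma, adjusted p under 0.05), where 0.212% of all 13185 tested genes did (28 genes). By limma, 1 of the 7 was higher at an unadjusted p under 0.05, DUSP5, and 2 were lower, SPRY1 and IER3, against 5.08% higher and 7.03% lower of all tested genes. These were also the tested members whose libraries did not overlap between the groups, 1 higher and 2 lower, where 7.61% of tested genes were higher and 10.4% lower without overlap. Of the 7 estimates 5 were below 0, and their median log2 change was -0.14, beside -0.01 over all tested genes, of which 52.4% were below 0. With no filter, so that all 10 members entered, their median was 0.01. Because the members were selected on this comparison, nothing is read from these shares.

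**Figure D2:**
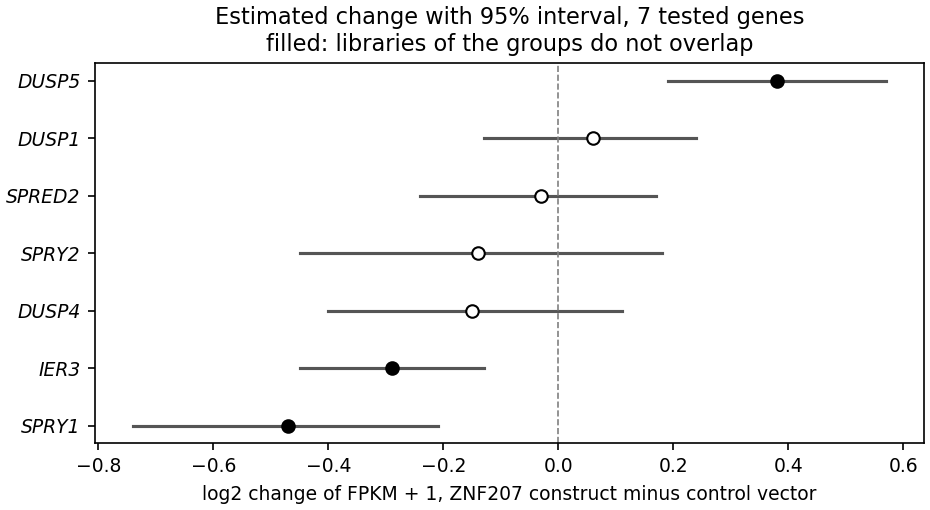
Estimated log2 change of FPKM + 1 (overexpression minus control) with its 95% interval from limma for the 7 tested feedback genes; filled points mark genes whose libraries do not overlap between the groups. The estimates run from -0.47 for SPRY1 to 0.38 for DUSP5, and the intervals of DUSP4, SPRY2, SPRED2 and DUSP1 include 0.

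Among the listed phosphatases, DUSP5 had no overlap between the groups, while DUSP1, DUSP4 and DUSP6 overlapped. DUSP5 encodes a nuclear phosphatase that is selective for ERK (chromosome 10, 110497838 to 110511544, plus strand, GENCODE v29 on GRCh38). Its controls were at 11.0, 10.4 and 12.1 FPKM and the ZNF207 libraries at 13.9, 15.3 and 15.4 FPKM. The lowest ZNF207 library lay above the highest control, with means of 11.2 ± 0.878 and 14.9 ± 0.866 FPKM (SD, n = 3 each). On the log2(FPKM + 1) scale its change was 0.38 (SE 0.08, 95% interval 0.19 to 0.57, limma adjusted p = 0.111), and the adjusted p ran from 0.0774 to 0.371 over 16 alternatives. In bulk RNA, a change in the number of cells that hold a transcript and a change in the amount per cell cannot be told apart.

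DUSP1 encodes a nuclear phosphatase that acts on p38 and JNK as well as ERK (chromosome 5, 172768090 to 172771195, minus strand). Its values were 18.9, 22.5 and 20.2 FPKM in controls and 20.1, 21.2 and 22.8 FPKM in ZNF207 libraries. The groups overlapped, and the change of 0.06 (95% interval -0.13 to 0.24, limma adjusted p = 0.839) was smaller than its error. Its listed locus is shared with 4 other rows of the table, and those of DUSP6 and SPRED2 with 1 other row each. Whether the transcripts of these rows overlap, or share reads with the feedback genes, was not tested.

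DUSP4, another nuclear phosphatase of ERK and JNK (chromosome 8, 29333064 to 29350668, minus strand), stood at 5.09, 5.81 and 4.81 FPKM in controls. In the ZNF207 libraries it was at 5.01, 4.74 and 4.14 FPKM. Of these values, 2 lay below every control, and the highest was within the control range. The log2 change was -0.15 (95% interval -0.40 to 0.11, limma adjusted p = 0.65). It was -0.08 without control replicate 2 and also without ZNF207 replicate 3. Without control replicate 3 it was -0.20, and the same without ZNF207 replicate 1.

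DUSP6, the cytoplasmic ERK phosphatase often used as a readout of the cascade (chromosome 12, 89347232 to 89353271, minus strand), was low in every library. Controls were at 0.517, 0.659 and 0.397 FPKM and ZNF207 libraries at 0.565, 0.900 and 0.765 FPKM, with overlap between the groups. It was not tested, and without the filter its log2 change was 0.19 (limma adjusted p = 0.755).

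Summed over the 4 phosphatases, FPKM was 37.5 ± 1.93 in controls and 41.6 ± 1.88 in ZNF207 libraries (SD, n = 3 each). DUSP5 made up 31.0%, 26.4% and 32.4% of that sum in the controls and 35.1%, 36.2% and 35.8% in the ZNF207 libraries. Control replicate 2 had the lowest share, with the lowest DUSP5 and the highest DUSP1 and DUSP4 of the control group.

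The most abundant Sprouty gene, SPRY1, had the lowest estimate of the feedback genes. SPRY1 encodes an inhibitor of signalling between receptor tyrosine kinases and RAF (chromosome 4, 123396795 to 123403760, plus strand), and its locus is shared with no other row. Controls stood at 19.3, 24.7 and 20.0 FPKM and ZNF207 libraries at 15.1, 17.2 and 12.9 FPKM. Every ZNF207 library lay below every control, with means of 21.3 ± 2.94 and 15.1 ± 2.13 FPKM (SD, n = 3 each), a ratio of 0.71. The log2 change was -0.47 (SE 0.12, 95% interval -0.74 to -0.21, limma adjusted p = 0.147). Over 16 alternatives its adjusted p ran from 0.0398 to 0.466, past the threshold only with the replicate number as a block. The estimate was -0.37 without control replicate 2 (limma adjusted p = 0.417) and also without ZNF207 replicate 3 (limma adjusted p = 0.377). It was -0.54 without control replicate 1 (limma adjusted p = 0.158) and -0.57 without ZNF207 replicate 2 (limma adjusted p = 0.146).

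SPRY2, its relative on chromosome 13 (80335976 to 80340951, minus strand), was less abundant. It was at 1.92, 2.34 and 2.41 FPKM in controls and at 1.88, 2.22 and 1.71 FPKM in ZNF207 libraries, with overlap between the groups. The log2 change was -0.14 (95% interval -0.45 to 0.18, limma adjusted p = 0.742). It was -0.09 without control replicate 3 and -0.08 without ZNF207 replicate 3. Without control replicate 1 it was -0.21, and without ZNF207 replicate 2 it was -0.20.

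SPRY4 (chromosome 5, 142310427 to 142326455, minus strand) lay at the bottom of the range. Its controls were at 0.188, 0.154 and 0.235 FPKM and its ZNF207 libraries at 0.320, 0.307 and 0.421 FPKM. All 3 ZNF207 libraries were above the controls, in the opposite direction to SPRY1, at a level below 1 FPKM in all 6. It did not enter the test, and without the filter its log2 change was 0.18 (limma adjusted p = 0.537). The antisense gene SPRY4-AS1 and FGF1 share the listed locus and stayed at or below 0.0461 and 0.0165 FPKM. The Sprouty sum was 23.7 ± 3.05 FPKM in controls and 17.4 ± 2.33 FPKM in ZNF207 libraries (SD, n = 3 each), of which SPRY1 supplied 88.3% to 90.8% and 85.9% to 87.3%.

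The SPRED genes, which encode Sprouty-related membrane proteins that work with neurofibromin, overlapped between the groups. SPRED2 (chromosome 2, 65310851 to 65432637, minus strand) stood at 20.6, 26.2 and 23.6 FPKM in controls and at 21.4, 23.5 and 23.6 FPKM in ZNF207 libraries. All 3 ZNF207 values lay inside the control range, and the log2 change of -0.03 (95% interval -0.24 to 0.17, limma adjusted p = 0.925) turned to 0.05 without control replicate 2 and to 0.01 without ZNF207 replicate 1. SPRED1 (chromosome 15, 38252326 to 38357249, plus strand) was at 0.513, 0.799 and 1.14 FPKM in controls and at 0.816, 1.15 and 0.988 FPKM in ZNF207 libraries. Only 2 of its 6 values reached 1 FPKM, and its control libraries spread more than the groups differed.

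IER3, an immediate early gene whose product is a substrate of ERK and a regulator of cell survival, was the most abundant of the 10 (chromosome 6, 30743199 to 30744554, minus strand). Controls stood at 72.9, 84.7 and 80.6 FPKM and ZNF207 libraries at 67.4, 60.6 and 66.1 FPKM. Every ZNF207 library was below every control, with means of 79.4 ± 5.98 and 64.7 ± 3.62 FPKM (SD, n = 3 each), a ratio of 0.82. The log2 change was -0.29 (SE 0.07, 95% interval -0.45 to -0.13, limma adjusted p = 0.13), with an adjusted p from 0.0903 to 0.412 over 16 alternatives. Its listed locus holds 3 other rows, of which the antisense gene IER3-AS1 reached at most 0.378 FPKM.

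The position of DUSP5 against the other feedback genes was described by its ratio to each in the same library, which removes any scale factor of the library. DUSP5 stood at 0.573, 0.422 and 0.609 of SPRY1 in the controls and at 0.919, 0.888 and 1.19 of it in the ZNF207 libraries. The mean ratio was 1.87-fold higher with overexpression, the largest of the 6 shifts against tested genes. Against IER3 the ratios were 0.151, 0.123 and 0.151 in controls and 0.206, 0.252 and 0.234 in ZNF207 libraries, 1.63-fold higher in the mean. The shift was 1.53-fold against SPRY2, 1.50-fold against DUSP4, 1.35-fold against SPRED2 and 1.27-fold against DUSP1. In each of these 6 ratios the groups did not overlap, and all 6 share the DUSP5 values, so they are not separate observations. DUSP5 itself did not overlap between the groups and was selected on these values, so nothing is read from this count. Against the 3 genes with means below 1 FPKM the picture was not the same: the mean ratio was 0.73-fold for SPRY4, 0.91-fold for DUSP6 and 1.02-fold for SPRED1. The ratios to SPRY4 also did not overlap, in the opposite direction, at 58.6, 67.6 and 51.8 in controls and 43.4, 49.7 and 36.7 in ZNF207 libraries. Those to DUSP6 and SPRED1 overlapped.

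**Figure D3:**
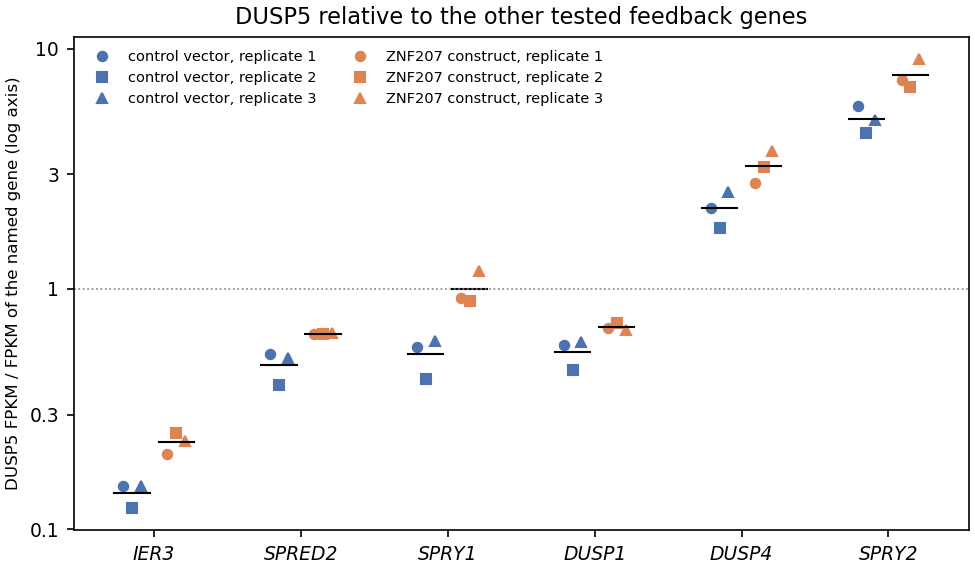
Ratio of DUSP5 FPKM to the FPKM of each other tested feedback gene in the same library, on a log axis; blue is control vector, orange the ZNF207 construct, and bars are means of 3 libraries. In every pair the 3 orange points lie above the 3 blue points, and control replicate 2 (blue square) is the lowest of each.

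On the log2(FPKM + 1) scale, DUSP5 minus the mean of the other 9 genes was 0.82, 0.54 and 0.83 in the controls and 1.11, 1.15 and 1.24 in the ZNF207 libraries. The groups differed by 0.44 in the mean, and by 0.34 when control replicate 2 was left out. That library was the highest of the controls for 5 of the 7 tested genes (DUSP1, DUSP4, SPRY1, SPRED2 and IER3) and the lowest for DUSP5. No library of the overexpression group was highest for more than 3 of the 7. Whether a property of control replicate 2 contributes to the DUSP5 difference was not tested beyond leaving it out. No test is given, since DUSP5 was set apart after its values were known.

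The rest of the pathway was read from 7 lists of ERK pathway genes drawn up from general knowledge, with earlier results of these data known. Of 121 genes, 109 were tested, and 0 passed the threshold by limma in either direction. At an unadjusted p under 0.05, 4 of the 109 were higher and 8 lower, where 5.08% of all tested genes were higher and 7.03% lower by the same limit and 0.212% passed the adjusted threshold. Libraries did not overlap between the groups for 8 of the 109 higher and 12 lower, where 7.61% and 10.4% of all tested genes did so. These counts are near the background, and nothing is read from their imbalance. Genes named below are mostly the highest and lowest of each list, so a lack of overlap among them is description only. The median log2 change was -0.01, the same as over all tested genes.

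**Figure D4:**
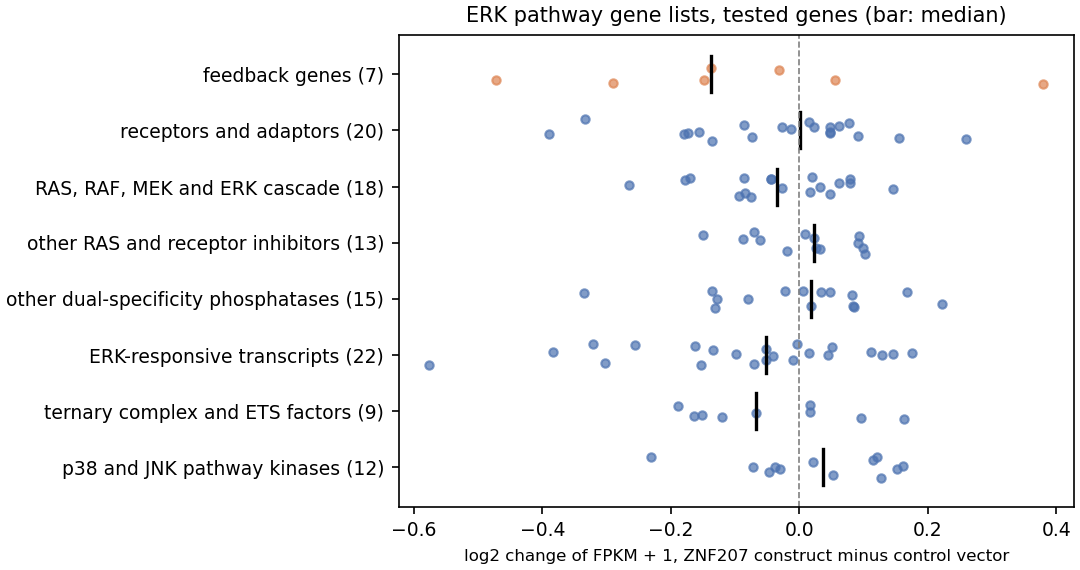
Estimated log2 change of FPKM + 1 (overexpression minus control) for each tested gene of the feedback genes (orange) and the 7 other ERK pathway lists (blue), with the number tested in brackets, a bar at the median and vertical jitter without meaning. The list medians run from -0.14 for the feedback genes to 0.04 for p38 and JNK pathway kinases, with DUSP5 at 0.38 as the highest point and AREG at -0.58 as the lowest.

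Upstream, 20 of 20 receptor and adaptor genes were tested, with a median of 0.00 and 10 estimates on each side of 0. EGFR stood at 3.95, 4.40 and 3.65 FPKM in controls and at 2.72, 3.02 and 2.70 FPKM in ZNF207 libraries (log2 change -0.39, limma adjusted p = 0.228). The ubiquitin ligase gene CBLB, a brake on receptor signalling, was at 5.71 ± 0.589 and 4.34 ± 0.683 FPKM (SD, n = 3 each). In the other direction, FGFR4 was at 52.2 ± 3.50 and 62.9 ± 8.30 FPKM (log2 change 0.26, limma adjusted p = 0.293). Its log2 change was 0.16 without ZNF207 replicate 3 and 0.32 without ZNF207 replicate 1. In the same direction, ERBB3, which pairs with ERBB2, was at 55.1 ± 3.69 and 61.5 ± 4.19 FPKM. Libraries of the groups did not overlap for EGFR, CBLB and FGFR4, and overlapped for ERBB3. For CBLB the highest ZNF207 library was at 5.12 FPKM and the lowest control at 5.14 FPKM.

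Of the RAS, RAF, MEK and ERK cascade 18 of 20 genes were tested (median -0.04). MAP2K1, which encodes the kinase MEK1, stood at 52.4, 55.4 and 53.4 FPKM in controls and at 48.0, 48.4 and 45.8 FPKM in ZNF207 libraries, without overlap (log2 change -0.18, limma adjusted p = 0.236). The small GTPase gene RRAS was at 19.8 ± 2.24 and 16.3 ± 1.41 FPKM, also without overlap. Its highest ZNF207 library was at 17.3 FPKM and its lowest control at 17.5 FPKM. Groups overlapped for BRAF (7.01 ± 0.578 and 7.11 ± 0.188 FPKM) and for MAPK3, which encodes the kinase ERK1 (32.5 ± 1.22 and 30.4 ± 1.39 FPKM). The scaffold gene LAMTOR3 had the highest estimate of this list (log2 change 0.15). Its estimate was 0.04 without ZNF207 replicate 3 and 0.22 without ZNF207 replicate 2.

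Estimates ran from -0.34 to 0.22 for the other phosphatases and from -0.15 to 0.10 for the other inhibitors. SPRY1 and DUSP5 lay outside these ranges, but they were selected on these same values, so nothing is read from this. Among 15 tested dual-specificity phosphatase genes outside the 10 (median 0.02), DUSP2, an ERK and p38 phosphatase, was at 6.86 ± 0.563 and 8.17 ± 0.641 FPKM. Its log2 change was 0.22 (limma adjusted p = 0.412), and its groups did not overlap, as for DUSP5. DUSP18 had 0.17, with overlap. The lowest estimates among those above 2 FPKM were -0.14 for DUSP23 and -0.13 for DUSP22. The 13 tested inhibitors of RAS and receptors (median 0.02) included the RAS GTPase-activating protein genes RASA3 and DAB2IP, both with a log2 change of 0.10, and RASAL1 of the same family, at -0.09. The paralogs SPRY3 and SPRED3 were not tested and reached at most 0.0248 and 1.23 FPKM.

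Downstream, 22 of 28 ERK-responsive transcripts were tested (median -0.05, range -0.58 to 0.18). Of the 22 estimates 15 were below 0 (68.2%), beside 52.4% of all tested genes, and nothing is read from this share. AREG, which encodes the EGFR ligand amphiregulin, stood at 26.0, 17.5 and 16.7 FPKM in controls and at 13.8, 12.9 and 11.9 FPKM in ZNF207 libraries (log2 change -0.58, limma adjusted p = 0.153). The groups did not overlap, but control replicate 1 lay well above the other controls, and the log2 change was -0.38 without it. Without control replicate 3 the AREG change was -0.69. The receptor gene EPHA4 was at 3.92 ± 0.513 and 2.76 ± 0.197 FPKM and the cyclin D1 gene CCND1 at 472 ± 15.3 and 422 ± 16.4 FPKM, both without overlap (log2 changes -0.38 and -0.16, limma adjusted p = 0.251 and 0.258). ZFP36, an mRNA decay factor, was at 46.5 ± 0.422 and 52.7 ± 3.10 FPKM and the stress factor ATF3 at 16.4 ± 1.53 and 18.3 ± 0.684 FPKM, both higher without overlap (log2 changes 0.18 and 0.15, limma adjusted p = 0.271 and 0.522). For ATF3 the lowest ZNF207 library was at 17.8 FPKM and the highest control at 17.6 FPKM. Without control replicate 3 the ATF3 estimate was 0.07, and without control replicate 2 it was 0.19.

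Of the classical outputs of ERK, EGR1, FOS and PHLDA1 overlapped between the groups. EGR1, a zinc finger factor that ERK induces, stood at 9.92, 10.5 and 8.93 FPKM in controls and at 10.3, 9.26 and 9.53 FPKM in ZNF207 libraries (log2 change -0.01, 95% interval -0.21 to 0.19). FOS was at 10.4, 11.6 and 6.91 FPKM in controls and at 8.26, 6.41 and 7.50 FPKM in ZNF207 libraries (log2 change -0.32, limma adjusted p = 0.482). The FOS estimate was -0.52 without control replicate 3 (adjusted p = 0.142) and -0.19 without control replicate 2 (adjusted p = 0.843). PHLDA1 was at 1.96 ± 0.167 and 1.95 ± 0.220 FPKM. Of the ETS factors that follow ERK activity, ETV5 was at 1.14 ± 0.380 and 0.731 ± 0.277 FPKM, and ETV1 was listed at 0 in all 6 libraries. ETV4 was at 0.273, 0.319 and 0.301 FPKM in controls and at 0.117, 0.203 and 0.236 FPKM in ZNF207 libraries, lower without overlap at a level that did not enter the test.

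Among 9 tested ternary complex and ETS factor genes (median -0.07), ETS2 had 0.16 and ETV3 0.10, while CREB1, whose product binds the element TGACGTCA printed for DUSP1, had -0.19 and ELK3 -0.16. In the 12 kinases of the p38 and JNK pathways (median 0.04), MAP2K6 had 0.16 and MAP2K4 0.15, while MAPK12 had -0.23 and MAPK8 -0.07 on the log2 scale. None of these 8 genes passed the threshold. The groups did not overlap for ETS2 (higher) and ELK3 (lower), and overlapped for the others. Single libraries moved several of the estimates. MAP2K6 was at 0.04 without ZNF207 replicate 3 and at 0.30 without ZNF207 replicate 2. MAP2K4 was at 0.09 without ZNF207 replicate 3 and at 0.20 without ZNF207 replicate 1. MAPK12 was at -0.35 without ZNF207 replicate 2 and at -0.17 without ZNF207 replicate 1. CREB1 was at -0.09 without control replicate 1 and at -0.28 without control replicate 2.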

How the data were processed

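RNA sequencing of 6 libraries was analysed from the table deposited by the authors, which holds FPKM values, 1 column per library without pooling. The submitters' processing notes name the build hg38 and the tools RSEM 1.3.1, Bowtie2 and DESeq2 1.4.5, without saying what each did. Annotation, strandedness and filters are not stated there. Columns were matched to samples by name: NC was read as control, the digits of ZNF207 as the construct, and the last digit as the replicate number. Of rows with the same symbol, the one with the highest mean stayed.

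Since FPKM is a normalized unit, no count model was fitted. Values were compared as log2(FPKM + 1), a scale that understates changes of low genes, with limma 3.58.1 in R 4.3.3 (mean-variance trend, two-sided, Benjamini-Hochberg over 13185 genes, threshold 0.05). The procedure was checked on simulated data with changes of 0.5 or more on the log2 scale, and 70% of those at 0.5 were called. The changes were placed only in genes with a control mean above 2 on the log2(FPKM + 1) scale, so lower genes were not covered. All estimates of the feedback genes were smaller in size, so the check does not cover them. Members and lists were chosen with earlier results of these data known. Besides the 10 members, each list gives its 2 highest and 2 lowest estimates among genes with a mean of 2 FPKM or more in a group, plus 11 genes named whatever their change. Some genes under this rule are not reported here. Alternatives were the pseudocount, filter, scaling, variance model, weights, replicate block and each library left out. Gene coordinates are from GENCODE v29 on GRCh38 and promoters from RefSeq.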

Additional observations from a re-analysis of the deposited data

How the results depend on the processing

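The number of genes called over the whole table was 28, and it was 4 without a filter, 64 with the filter at an FPKM of 5, 17 with median-of-ratios scaling, 5 without a variance trend, 145 with the replicate number as a block and 7 to 33 when 1 library was left out. Same-numbered libraries deviated together with correlations of 0.136, 0.00881 and 0.175 across genes, and the highest among the other pairs was 0.0705. Of 6 libraries, 4 correlated best with their own number. These values do not settle whether the titles' numbers mark pairs. The main fit did not take them as pairs, and the block was an alternative. With the replicate block SPRY1 was called (adjusted p = 0.0398), and no other tested feedback gene was called under any alternative. The median of the feedback genes was 0.01 without a filter, where all 10 enter, and otherwise stayed below 0. When 1 library was left out, the log2 change ran from -0.12 to 0.05 for SPRED2, -0.04 to 0.06 for BRAF, -0.07 to 0.04 for EGR1, -0.16 to 0.03 for MAPK8 and -0.21 to 0.05 for RASAL1. EGR1 was at 0.01 after rescaling to TPM. The difference of DUSP5 from the mean of the others was 0.34 to 0.49 with 1 library left out, 0.38 with a pseudocount of 0.1 and 0.55 against only the 6 others that passed the filter, an alternative chosen after seeing the data. It uses no filter, weights or variance model. No gene of the other pathway lists was called under any alternative. Leaving out a library also leaves fewer samples, and the causes of the other shifts were not tested. Depth is unknown, so no detection limit is given for DUSP6, SPRY4 and SPRED1.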
